A study of Ambystoma mexicanum with 8 samples.

Results

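The 5 rows of the axolotl small RNA table that carry the name miR-23, miR-24 or miR-27 were followed across 4 stages of forelimb regeneration. They are miR-23a-1-3p, miR-24-1-3p, miR-27a-5p, miR-27b-3p and miR-27d-3p, 5 of the 143 miRNAs in the table, and were taken by name and not by level. The axolotl is a salamander, Ambystoma mexicanum, that regrows a lost limb from a blastema, the mass of dividing progenitor cells that forms at the wound. Forelimbs of animals from a stock centre, all anesthetised with MS222, were cut through the middle of the zeugopod, the segment of radius and ulna. Tissue was taken uninjured (0 days post amputation, dpa) and at 3, 6 and 14 dpa. The study compared 6 dpa with 0 dpa to find miRNAs and mRNAs that change as the blastema forms, which it places at 6 dpa in this limb. It added the mRNA reads of 3 and 14 dpa to improve its assembly of transcripts. Each stage has 1 small RNA library and 1 mRNA library, made from a pool of 4 or more tissues. No difference between these libraries therefore has a replicate check, and no p-value is given. The study also ran qRT-PCR on replicate samples, miR-24 included, which was not analysed here. By that method it reports miR-24 as downregulated in axolotl at 6 dpa. Strain, age and sex are not given in the sources used here. The 95% intervals come from the reads by the exact Clopper-Pearson method and cover counting error only.

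A miRNA is a short RNA that guides a silencing complex to mRNAs, largely through its seed, the bases near its 5′ end that pair with the message. In vertebrates miR-23, miR-27 and miR-24 are made from shared primary transcripts, in clusters that were duplicated in evolution, so that one transcript can yield all of them before each is processed and degraded on its own. In mammals the miR-27 family is known for acting on adipocyte, muscle and vascular genes, miR-24 for restraining cell cycle and matrix genes, and miR-23 for muscle and endothelial genes. A hairpin gives a 5p and a 3p strand, and for miR-27a in mammals the 3p strand is usually the more abundant. For the regenerating zebrafish fin the study lists the 5p strand of miR-27a as the more highly expressed one.

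The mature sequences are shown because they set which rows can share targets and which can share reads. They are the axolotl sequences in the study's own list, written 5′ to 3′ with T for U and with the seed, bases 2 to 8, in capitals.
miR-23a-1-3p: aTCACATTgccagggatttcca
miR-24-1-3p: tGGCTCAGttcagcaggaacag
miR-27a-5p: aGGACTTAgctcactttgtgaac
miR-27b-3p: tTCACAGTggctaagttctgc
miR-27d-3p: tTCACAGTggctaagttctg
The miR-27b-3p and miR-27d-3p rows have one seed and are the only pair among the 5 that does. The seeds of miR-23a-1-3p and miR-27b-3p are 1 base apart, T7G counted from the 5′ end of the miRNA with the miR-23a base first. The miR-27a-5p seed is that of the other strand of the hairpin and occurs in 1 row of the table, as do those of miR-24 and miR-23a. Against the zebrafish sequence of that strand the axolotl one differs by C16T, with the zebrafish base first.

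The miR-27d-3p sequence is the whole of miR-27b-3p without its last base, so the rows share 20 bases and differ by 1 base in length. In the hairpins of zebrafish that the study lists, the 24 bases from the start of the 3p strand differ between both genes, with the base after the first 19 in capitals.
zebrafish miR-27b hairpin: ttcacagtggctaagttctGcatc
zebrafish miR-27d hairpin: ttcacagtggctaagttctTcacc
The axolotl miR-27d-3p row has the miR-27b base there, and its difference from the zebrafish miR-27d hairpin is G20T, with the axolotl base first. Of the 218 zebrafish hairpins listed, 1 holds the axolotl miR-27d-3p sequence whole, and it is that of miR-27b. The miR-27d row thus cannot be told by its sequence from a miR-27b read that is 1 base shorter, and both rows are given below separately and added.

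Each row holds the reads of one exact sequence and not of all length forms of a miRNA. Of the 143 miRNAs, 68 have their sequence in the study's list of 1242 tags of 20 to 25 bases, and for all 68, the 5 named here included, the reads of the row are those of that single tag in all 4 libraries. The list has 4 tags that start with the 20 bases shared by miR-27b-3p and miR-27d-3p, and they are shown because the ends of this miRNA decide which row a read falls in.
row miR-27d-3p: tTCACAGTggctaagttctg
row miR-27b-3p: tTCACAGTggctaagttctgc
no row, form ending in a: tTCACAGTggctaagttctga
no row, longer form: tTCACAGTggctaagttctgca
The first 20 bases of miR-23a-1-3p start 3 tags, those of miR-24-1-3p 6 tags and those of miR-27a-5p 4 tags. A further 3 tags hold the first 20 bases of miR-27a-5p after 1 more base at the 5′ end, which shifts the seed. The start of zebrafish miR-23b-3p is found in 4 tags, although the table has no row of that name, and no tag starts with the first 20 bases of zebrafish miR-27a-3p. In a row taken alone, a difference in the miRNA and one in the share of its reads that end at that base cannot be told apart.

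The small RNA libraries held 1297551, 901281, 1262929 and 1918841 miRNA reads, in order of stage. miR-21, the most abundant miRNA after amputation, took 1.92% of these reads at 0 dpa and 39.7 to 46.1% at the later stages, which lowers the share left to every other miRNA. Reads were therefore scaled with TMM (trimmed mean of M-values), and are given as scaled cpm, the usual measure of reads relative to library size. The 5 rows together made up 3.55, 2.79, 5.18 and 3.47% of miRNA reads. A difference of more than 0.58 on the log2 scale, 1.49-fold, is counted as past the cut-off. The study gives this cut-off for its list of miRNAs that differ in axolotl, and it is used here for mRNA too. The lowest value of the 5 rows was 1560 reads, so none is near the floor of 3 reads. All 5 are among the 126 miRNAs that reached 10 reads at each stage.

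**Figure D1:**
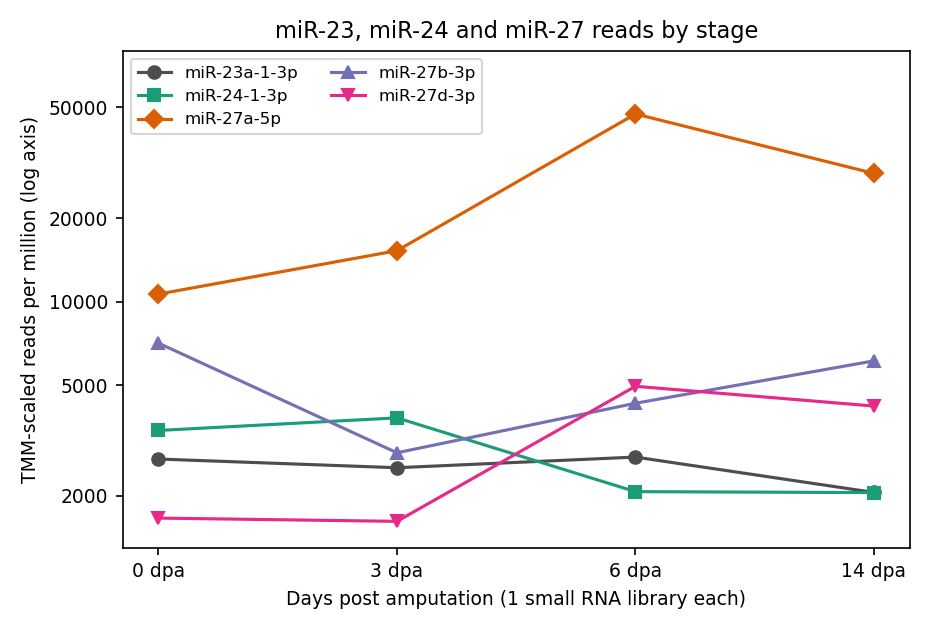
TMM-scaled cpm, on a log axis, of the 5 miRNAs in the 4 small RNA libraries, with 1 point per library at 0, 3, 6 and 14 dpa. miR-27a-5p is the highest at every stage and reaches 47372 at 6 dpa, while miR-23a-1-3p stays between 2057 and 2758.

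miR-27a-5p, the 5p strand of the miR-27a hairpin, was the most abundant of the 5 at every stage and the one that differed most between stages. It had 19201, 14699, 50411 and 44368 reads at 0, 3, 6 and 14 dpa. After scaling these are 10647, 15255, 47372 and 28949 cpm. Levels at 6 and 14 dpa are thus both above that at 0 dpa, with the peak at 6 dpa, where the row was the 4th most abundant of all miRNAs against 16th at 0 dpa. Against 0 dpa the log2 fold change was 0.52 at 3 dpa (0.49 to 0.55), 2.15 at 6 dpa (2.13 to 2.18) and 1.44 at 14 dpa (1.42 to 1.47). The difference at 6 dpa, 4.45-fold, was the 14th highest of the 143 miRNAs. From 6 to 14 dpa it was lower by 1.64-fold, at -0.71 (-0.73 to -0.69). Over the 4 libraries its range was 2.15 on the log2 scale, and 43 of the 126 miRNAs had a larger one, against a median of 1.71.

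miR-27b-3p, the 3p strand that in other vertebrates carries the targeting known for miR-27, was lowest at 3 dpa. Its reads were 12789, 2754, 4585 and 9383 at 0, 3, 6 and 14 dpa, which scale to 7092, 2858, 4309 and 6122 cpm. The low point falls in the stage before the miR-27a-5p peak, and by 14 dpa the level was within the cut-off of the uninjured one under this scaling. The log2 fold change against 0 dpa was -1.31 at 3 dpa (-1.37 to -1.25), -0.72 at 6 dpa (-0.77 to -0.67) and -0.21 at 14 dpa (-0.25 to -0.17). The first of these was the 17th lowest of the 143 miRNAs and a 2.48-fold difference. The level at 14 dpa was higher than that at 3 dpa by 1.10 (1.04 to 1.16). Against 0 dpa the value at 14 dpa depends on the scaling. Over the 8 alternatives tried it ran from -1.01 with total counts, past the cut-off, to 0.17 with the 3 dpa library as reference.

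miR-27d-3p, with the same seed, was at its uninjured level at 3 dpa, within counting error under this scaling, and higher from 6 dpa. Its reads were 3000, 1560, 5278 and 6451, or 1664, 1619, 4960 and 4209 cpm. Both later levels are above both earlier ones. The log2 fold change was -0.04 at 3 dpa (-0.13 to 0.05), 1.58 at 6 dpa (1.51 to 1.64) and 1.34 at 14 dpa (1.28 to 1.40). With other scalings the value at 3 dpa ran from -0.42, with total counts, to 0.03, inside the cut-off throughout.

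The ratio of these rows within a library does not depend on the scaling. miR-27d-3p had 0.235 reads for each read of miR-27b-3p at 0 dpa (0.225 to 0.244). This was 0.566 at 3 dpa (0.532 to 0.603), 1.15 at 6 dpa (1.11 to 1.20) and finally 0.688 at 14 dpa (0.666 to 0.710). None of these intervals overlap. The shorter form was thus the minority at 0 dpa and slightly the majority at 6 dpa, a 4.91-fold larger ratio. As a share of both rows it was 19.0% (18.4 to 19.6%) in the uninjured limb, then 36.2% (34.7 to 37.6%), 53.5% (52.5 to 54.5%) and 40.7% (40.0 to 41.5%).

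**Figure D2:**
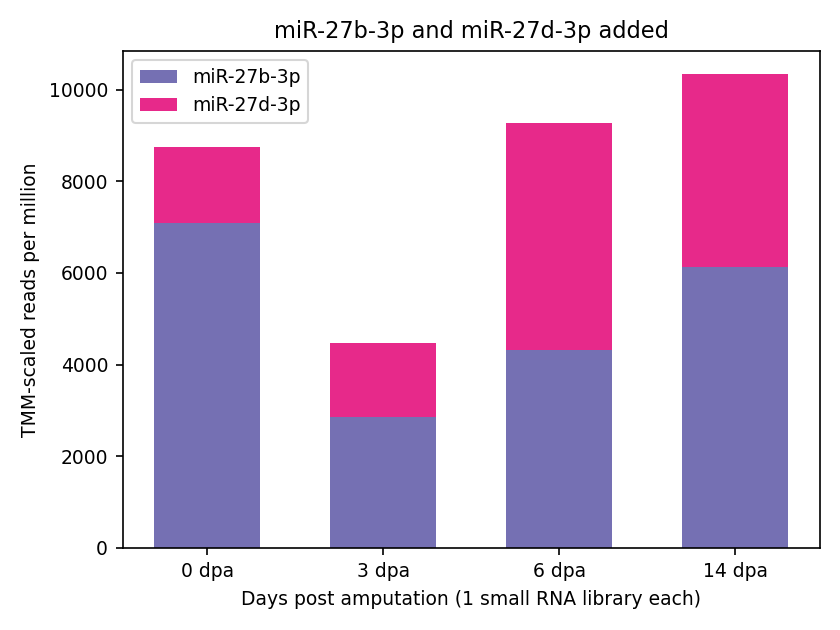
TMM-scaled cpm of miR-27b-3p and miR-27d-3p stacked for each of the 4 small RNA libraries. The miR-27d-3p share of each bar goes from 19.0% at 0 dpa to 53.5% at 6 dpa.

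Added together, both rows had 15789, 4314, 9863 and 15834 reads at the successive stages. The sum was lower at 3 dpa, with a log2 fold change of -0.97 (-1.02 to -0.92). At 6 dpa it was 0.08 (0.05 to 0.12) and at 14 dpa 0.24 (0.21 to 0.27), inside the cut-off. The opposite differences of the rows at 6 dpa, -0.72 and 1.58, were thus nearly balanced in the sum under this scaling. Over the 8 alternatives tried, the sum at 3 dpa stayed between -1.35 and -0.89. At 6 dpa it ran from -0.64 to 0.28 and had the same sign in 5. Those 5 include the settings with 0.5 and 1 read added before the log2 ratio, which hardly move a sum of this many reads. With total counts, upper quartile scaling or 10 reads at each stage it was negative. At 14 dpa the sum ran from -0.56 with total counts to 0.62 with the 3 dpa library as reference, past the cut-off under the latter alone. miR-27a-5p made up 54.9, 77.3, 83.6 and 73.7% of the reads of all 3 miR-27 rows at 0, 3, 6 and 14 dpa.

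miR-24-1-3p was lower at 6 and 14 dpa than at 0 and 3 dpa. It had 6201, 3678, 2204 and 3149 reads, or 3439, 3817, 2071 and 2055 cpm. The levels fall into an early pair and a late pair, with the stages of each pair close together. The log2 fold change against 0 dpa was 0.15 at 3 dpa (0.09 to 0.21), -0.73 at 6 dpa (-0.80 to -0.66) and -0.74 at 14 dpa (-0.81 to -0.68), and between 6 and 14 dpa it was -0.01 (-0.09 to 0.07). The difference at 6 dpa is 1.66-fold and the 55th lowest of 143. miR-24 is among the miRNAs that the study chose for their change at this stage in these libraries, so its direction in them is a description. The study also lists miR-27a, miR-27b and miR-27d as changed at 6 dpa in these libraries, so those differences are not new here. With the 3 dpa library as the TMM reference the values of miR-24-1-3p at 6 and 14 dpa were -0.53 and -0.36, inside the cut-off.

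miR-23a-1-3p differed least. Its reads were 4894, 2433, 2935 and 3153, or 2714, 2525, 2758 and 2057 cpm. Its range over the 4 libraries, 0.42 on the log2 scale or 1.34-fold, was the smallest of those 126 miRNAs, the other 125 having a larger one. The log2 fold change was -0.10 at 3 dpa (-0.17 to -0.03), 0.02 at 6 dpa (-0.04 to 0.09) and -0.40 at 14 dpa (-0.46 to -0.33). This flatness depends on the scaling, since at 6 dpa it ran from -0.70 to 0.22 over the 8 alternatives, and at 14 dpa from -1.20 to -0.02, past the cut-off under 2 of them.

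**Figure D3:**
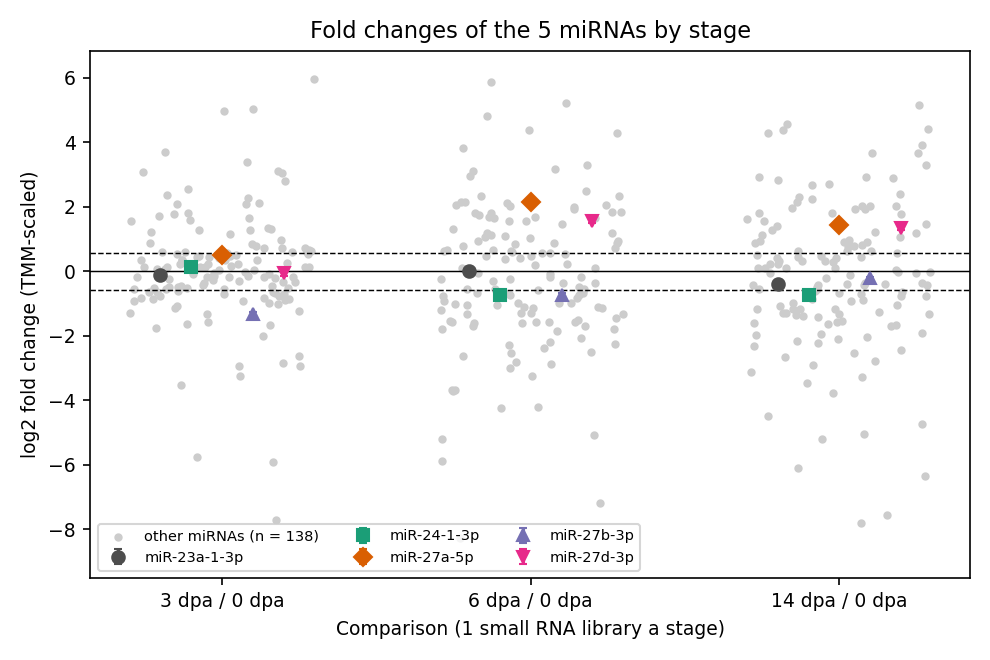
TMM-scaled log2 fold change at 3, 6 and 14 dpa against 0 dpa of the 5 miRNAs (coloured symbols, with bars for the 95% counting interval, mostly smaller than the symbol) and of all other miRNAs of the table (grey points, spread sideways for legibility), with dashed lines at the cut-off of 0.58 in both directions. Of the 5, the 2 above the upper line at 6 dpa are miR-27a-5p at 2.15 and miR-27d-3p at 1.58.

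With 5 rows, counts past the cut-off are read beside the share of all miRNAs that passed it. At 3 dpa, 1 of the 5 was below -0.58 and none above 0.58, where 27.3% and 28.0% of the 143 miRNAs were. At 6 dpa, 2 were higher and 2 lower, against 38.5% and 43.4% of all. At 14 dpa, 2 were higher and 1 lower, against 35.0% and 39.2%. Between 3 and 6 dpa, 3 rows, the miR-27 ones, were higher and miR-24-1-3p was lower at -0.88, against 30.1% and 39.2%. The interval of miR-27b-3p in that comparison, 0.52 to 0.66 around 0.59, spans the cut-off. Between 6 and 14 dpa miR-27a-5p alone passed it, downward, where 23.1% of all did, and none passed upward, where 27.3% did. Between 3 and 14 dpa the 3 miR-27 rows were higher and miR-24-1-3p lower at -0.89, against 32.2% and 42.0%. The median of the 5 was 0.02 at 6 dpa against 0 dpa, beside -0.23 for all 143.

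miR-23, miR-24 and miR-27 rows did not keep one ratio across stages. miR-24-1-3p had 1.27 reads per read of miR-23a-1-3p in the uninjured limb (1.22 to 1.32), then 1.51 (1.44 to 1.59), 0.751 (0.710 to 0.794) and 0.999 (0.950 to 1.05). miR-24-1-3p was thus ahead at 0 and 3 dpa, behind at 6 dpa and level within counting error at 14 dpa. miR-27a-5p had 3.10, 3.996, 22.9 and 14.1 reads per read of miR-24-1-3p at the successive stages. For miR-27a-5p over miR-27b-3p, the ratio was 1.501, 5.34, 10.99 and 4.73. That of miR-24-1-3p over miR-27b-3p was 0.485, 1.34, 0.481 and 0.336, above 1 at 3 dpa alone.

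**Figure D4:**
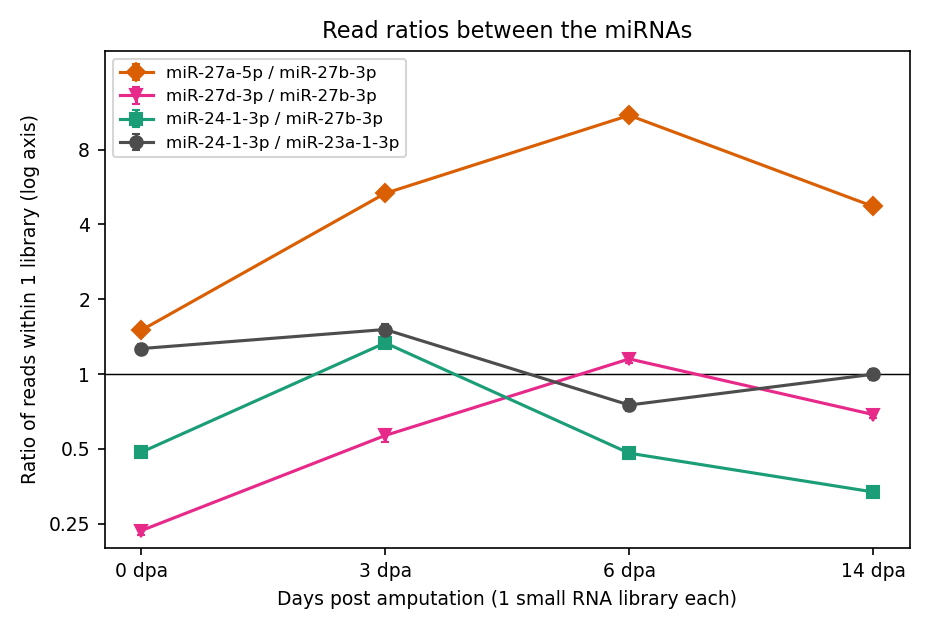
Ratio of reads within each small RNA library, on a log axis, by stage, for miR-27a-5p, miR-27d-3p and miR-24-1-3p over miR-27b-3p and for miR-24-1-3p over miR-23a-1-3p, with bars for the 95% exact binomial counting interval. miR-27a-5p over miR-27b-3p goes from 1.501 at 0 dpa to 10.99 at 6 dpa, and miR-24-1-3p over miR-23a-1-3p crosses 1 between 3 and 6 dpa.

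Likeness of profiles was measured as the root mean square difference of log2 cpm, centred on each miRNA's mean, over the 4 libraries and the 126 miRNAs, and is a description only. The nearest to miR-27a-5p were miR-221-1-3p at 0.25, miR-27d-3p at 0.26 and miR-222b-3p at 0.28, where the median miRNA was at 1.05. miR-27d-3p was nearest to miR-193b-3p at 0.13, followed by miR-10a-5p and miR-200a-3p at 0.21. miR-27b-3p was nearest to miR-106b-5p at 0.086, although that row had 12 reads at 3 dpa, then to miR-200b at 0.13 and miR-19d-3p at 0.19. The miR-27d-3p row was only the 54th nearest to miR-27b-3p, at 0.83. miR-24-1-3p was nearest to miR-205-5p at 0.11, let-7a-1-5p at 0.19 and miR-15a-1-5p at 0.20. miR-23a-1-3p was nearest to miR-365-1-3p at 0.14, miR-107a-3p at 0.20 and let-7g-1-5p at 0.21. miR-24-1-3p was the 17th nearest to miR-23a-1-3p, at 0.38.

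Whole tissue was sequenced, so fewer cells of a type and less RNA per cell cannot be told apart, and miRNAs known from other vertebrates to mark a tissue moved over the same stages. The 6 skeletal muscle rows summed to 144268, 44520, 30474 and 6081 cpm. At the later stages 3, 4 and 6 of the 6 were below -0.58, against 27.3%, 43.4% and 39.2% of all miRNAs. miR-140-3p, of cartilage, went from 180636 to 53031, 14052 and 8091 cpm. The 5 epidermal rows summed to 10658, 14145, 121681 and 113965 cpm, carried by miR-203a-3p at 6 and 14 dpa. At each of these stages 3 of the 5 were above 0.58, against 38.5% and 35.0% of all miRNAs. The one below -0.58 at both stages was miR-205-5p, at -0.73 and -0.63. The 4 leukocyte rows summed to 604, 5653, 4848 and 1394 cpm. At 14 dpa miR-150-5p was at -0.99 against 0 dpa, while the other leukocyte rows were above 0.58. The smooth muscle rows summed to between 16271 and 32166 cpm, and miR-126a-5p of endothelium lay between 1659 and 2429. The smooth muscle rows went different ways. miR-145-5p was at -1.70 at 6 dpa and -1.56 at 14 dpa, and miR-143-1-3p at -0.53 and 0.45, inside the cut-off. The 2 erythroid rows summed to 30.5, 440, 293 and 63.9 cpm. At 14 dpa they went different ways against 0 dpa, miR-451-5p at 4.39 and miR-144-5p at -0.85. No marker row was at 0 reads in any library. The part of these shifts in the values of miR-23, miR-24 and miR-27 was not tested.

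The mRNA libraries allow a look at the genes on which the study predicts miR-24 sites. A list of such genes that are also in its interaction network holds 22, all named by zebrafish gene symbols. The study's tables that pair genes with transcripts of its axolotl assembly were held only in part, and 16 of the 22 could be paired from them. The counts that follow thus rest on a shorter list than the study's. Most of the transcripts come from a table of transcripts higher at 6 dpa. The study chose these genes because they rose between 0 and 6 dpa, so the counts against 0 dpa are a description and not a finding. At 3 dpa 14 of the 16 were above 0.58 and none below -0.58, against 37.5% and 28.6% of transcripts compared. At 6 dpa 10 were above and none below, against 33.5% and 30.8%. At 14 dpa 9 were above and 1 below, against 33.1% and 33.0%. Between 3 and 6 dpa 2 were above and 6 below, against 23.7% and 32.5%, and between 6 and 14 dpa 2 and 3, against 24.9% and 27.4%.

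The comparison of 14 with 3 dpa uses neither of the stages that chose the genes, and over it miR-24-1-3p was lower at -0.89. It is not free of that choice, since most of these genes were already past the cut-off at 3 dpa. The transcript that stands for a gene was also picked by its mean over all stages, 3 and 14 dpa included. The counts that follow are thus a description too. Among the 16 genes 2 were above 0.58 and 5 below -0.58, against 25.8% and 34.6% of transcripts, and their median was -0.37 beside -0.11 for all. Those 5 include genes at -0.583 and -0.618 whose other paired transcript went the other way, at 0.363 and 1.70. With total counts or upper quartile scaling, for which no share of all transcripts is given here, the counts were 4 above and 3 below. Among the highest was FRMD4A, a FERM domain protein of cell polarity. It had 65, 413, 140 and 620 reads at 0, 3, 6 and 14 dpa and a log2 fold change of 1.32 (1.14 to 1.51), although its other paired transcripts differ in direction. Another was pias4a, a SUMO ligase, with 219, 1319, 755 and 1070 reads and 0.44 (0.32 to 0.55), inside the cut-off.

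The lowest were mmp13b, a collagenase, timp2a, an inhibitor of such metalloproteinases, and tubb5, a beta tubulin. mmp13b had 325, 102116, 28879 and 552 reads, and a log2 fold change of -6.79 (-6.92 to -6.67) between 3 and 14 dpa. timp2a had 1560, 39298, 6534 and 696 reads and -5.08 (-5.19 to -4.97). Its other transcript had 1925, 12098, 4621 and 1749 reads and gave -2.05. Between 0 and 6 dpa these transcripts gave 1.25 and 0.44, so that timp2a was past the cut-off by the first and inside it by the other. The fold change that the study reports for axolotl timp2a is close to that of the other transcript. In the comparison of 14 with 3 dpa every other transcript paired with mmp13b was also lower. mmp13b and timp2a peaked at 3 dpa. tubb5 had 1609, 20371, 4751 and 6175 reads and -0.98 (-1.02 to -0.94). ptprfb, a receptor tyrosine phosphatase that the study names, had 682, 5707, 4660 and 4068 reads and 0.25 (0.19 to 0.31), inside the cut-off, while its other paired transcripts gave -2.04 and -1.57.

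The scaling moved the level of every row by the same amount within a comparison. With total counts in place of TMM the median of all miRNAs shifted by -0.38 at 3 dpa, -0.71 at 6 dpa and -0.80 at 14 dpa, and the split at 6 dpa of 55 miRNAs higher and 62 lower became 36 and 80. miR-27a-5p and miR-27d-3p at 6 dpa and miR-27b-3p at 3 dpa were past the cut-off in the same direction under all 8 alternatives. Their ranges were 1.43 to 2.36, 0.85 to 1.78 and -1.69 to -1.24. Among the 8, the prior counts of 0.5 and 1 move rows with this many reads by almost nothing and are no real check of them. miR-27b-3p at 6 dpa ran from -1.44 to -0.52 and miR-24-1-3p from -1.45 to -0.53, each past the cut-off under 7 of the 8. At 14 dpa miR-27a-5p ran from 0.64 to 1.82 and was past it under all 8, and miR-27d-3p from 0.54 to 1.72 under 7.

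**Figure D5:**
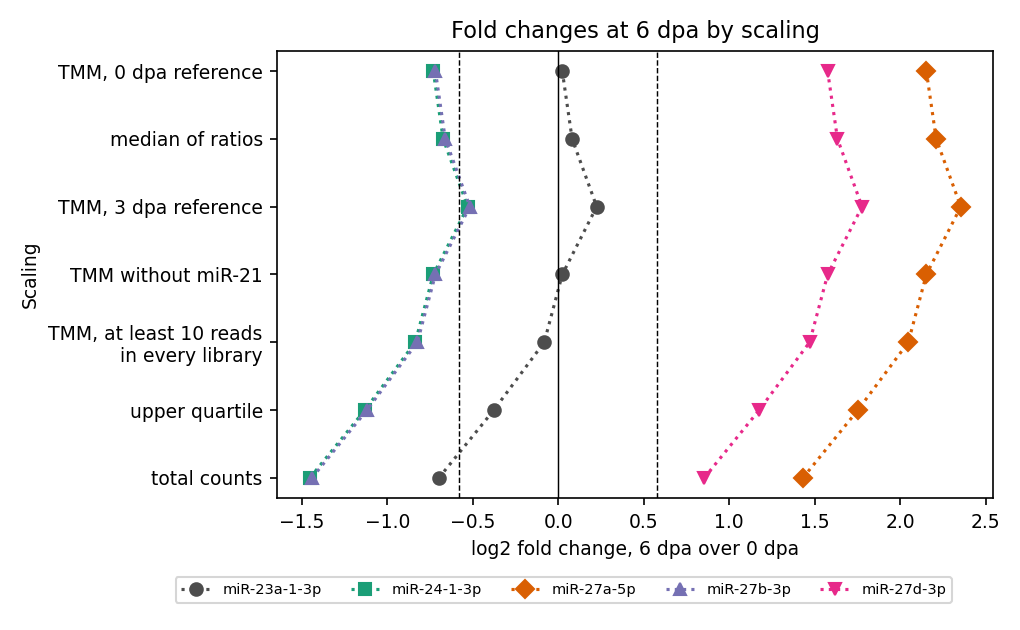
Log2 fold change of each of the 5 miRNAs at 6 dpa against 0 dpa (horizontal axis) under the TMM scaling and the scaling and filter alternatives (vertical axis), with 1 point per setting and the cut-off of 0.58 in both directions marked by dashed lines. Every point of miR-27a-5p is at or above 1.43, and the points of miR-23a-1-3p lie on both sides of 0, from -0.70 to 0.22.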

How the data were processed

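Small RNA and mRNA from axolotl forelimbs were sequenced at 0, 3, 6 and 14 dpa, with 1 library of each a stage. For the small RNAs, reads were clipped and collapsed with the FASTX Toolkit and annotated with miRMiner against miRBase version 21. For mRNA, Trimmomatic, Trinity and RSEM were used, as the submitters' processing notes and methods name them. Versions of these tools are not given in the sources used here. The deposited values are log2 of whole read numbers in both tables, although the authors' tables are named as log2 cpm, and were turned back into reads. There were 7 error marks among the small RNA values, taken as 0 reads. For mRNA, a value of 0 stands for 0 or 1 read and was taken as 0, and repeated lines were used once. The mRNA libraries held 15249786 to 36931886 reads.

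TMM scaling used the 0 dpa library as reference, trimming 30% of log ratios and 5% of levels, and a prior count of 0.125 was added before the log2 ratio. Factors were 1.39, 1.07, 0.843 and 0.799. Python 3.11.15, NumPy 2.4.6, pandas 2.3.3, SciPy 1.17.1 and matplotlib 3.10.9 were used, and the calculation was tested on simulated data. In those data most rows did not change, whereas here 55 miRNAs were higher and 62 lower at 6 dpa. The simulation thus checks the arithmetic and not the choice of scaling. Only transcripts reaching 10 reads in the compared libraries together were kept. With 1 library a stage no test was made, and a difference past 0.58 on the log2 scale was counted. The members and lists were chosen with earlier results of these data known. Named were all rows called miR-23, miR-24 or miR-27, for each the 3 miRNAs with the nearest profile, the predicted miR-24 targets with the 3 highest and 3 lowest ratios of 14 to 3 dpa, mmp13, timp2 and ptprf, and miR-21. One gene that this rule names is not reported here. Where a gene had several transcripts, that of highest mean cpm stands for it. The alternatives were total counts, upper quartile and median of ratios scaling, the 3 dpa library as reference, miR-21 left out, at least 10 reads in every library, prior counts of 0.5 and 1, a cut-off of 1, miR-27b-3p and miR-27d-3p added, and sums over an assembly component. An axolotl genome was not used here, so no positions are given.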

Additional observations from a re-analysis of the deposited data

How the results depend on the processing

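No paired analysis was possible because each stage has 1 library, and for the same reason no library could be left out. Of the 5 miRNAs, 1 was higher and 3 lower at 14 dpa against 0 dpa with total counts, beside 33 and 80 of all 143. At 14 against 3 dpa total counts gave 2 lower, beside 78 of all. Upper quartile scaling gave 1 higher at 3 dpa and 2 lower at 14 dpa against 0 dpa, beside 45 and 68 of all. It gave 1 higher and 0 lower at 14 against 6 dpa, beside 45 and 29 of all. At 14 against 3 dpa it gave 2 lower, beside 74 of all. With the 3 dpa library as reference, 0 were lower at 6 dpa and 0 at 14 dpa against 0 dpa, beside 53 and 46 of all. Under it 1 was higher and 0 lower at 14 against 6 dpa, beside 45 and 28 of all. At 14 against 3 dpa 0 were lower, beside 47 of all. Requiring 10 reads at each stage gave 1 higher at 14 against 6 dpa, beside 34 of the 126 miRNAs that reached them. A cut-off of 1 left 0 lower at 6 and 14 dpa against 0 dpa, beside 47 and 45 of all. At 6 against 3, 14 against 6 and 14 against 3 dpa it also left 0 lower, beside 39, 20 and 46. With miR-27b-3p and miR-27d-3p added, 1 was higher and 1 lower at 6 dpa and 1 higher at 14 dpa. Among all rows these numbers were 54, 61 and 49. Of the 16 predicted miR-24 targets, total counts put 16 higher at 6 dpa, and 4 higher and 3 lower at 14 against 3 dpa, as did upper quartile scaling for the latter with 4 and 3. Sums over a component put 2 lower at 3 dpa, 2 at 6 dpa and 3 at 14 dpa, and 1 higher at 14 against 3 dpa. For the targets, no share of all transcripts is given here under these settings. The other 121 counts stayed within 1.5 times of their values, a span that takes 2 and 3 of the 5 miRNAs as alike. Among these, 3 were lower at 6 dpa with total counts, not 2, beside 80 of all miRNAs. Between 3 and 6 dpa 2 were higher, not 3, with total counts, upper quartile scaling or 10 reads at each stage. Of all miRNAs compared, 31, 26 and 32 were higher there. The 28 read ratios stayed within their intervals with 0.5 read added. With at least 1560 reads in every row they could hardly do otherwise, so this is no real check of them. The cause of the shifts in the counts was not tested. Of the miRNAs past the cut-off, 47.0% were higher at 6 dpa, against 31.0% with total counts and 36.8% with upper quartile scaling; at 3 dpa it was 50.6% against 32.9% with total counts, and at 14 dpa 47.2% against 29.2% with total counts and 57.8% with the 3 dpa reference. Reads set the counting error only, and variation between animals is unknown.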

Other observations

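The nested sequences of miR-27d-3p and miR-27b-3p are one of 9 such pairs among the 143 miRNAs, in which one row is contained whole in another, and 8 of the pairs start at the same base. Between 0 and 6 dpa the shorter row gained on the longer in 7 of the 9 pairs, with a median log2 change of the ratio of 0.65. At 3 dpa this held in 7 and at 14 dpa in 6. Some pairs rest on few reads, as miR-203b-3p had 11 and 4 reads at 0 and 3 dpa and miR-19c-3p had 20 at 6 dpa. The pair of miR-203b-3p and miR-203a-3p is the one that does not start at the same base. For miR-222b-3p over miR-222a-3p the log2 change at 6 dpa was 3.09, for miR-454a-3p over miR-454b-3p 2.43, for miR-27d-3p over miR-27b-3p 2.29 and for miR-26b-5p over miR-26a-1-5p 1.29. It was -0.84 for miR-19c-3p over miR-19b-3p and -0.49 for miR-181b-1-5p over miR-181c-5p. The pairs were looked at after the miR-27 ratio was seen, and the ratios have no replicate. The miR-27 pair itself is counted in each of these numbers and in the median. Pairs of rows that are not nested were not counted beside them, so the counts are a description only.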
